A study of Mus musculus with 32 samples.

Results

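Genes that mark connective tissue, smooth muscle and vessels, 10 in all, were followed across the arrays of this series. They were chosen by a list of 10 Ensembl mouse gene identifiers of known cell type markers, and each had 1 probe set among the 21237 on the array. The list holds 4 matrix genes of fibroblasts (Col1a1, ENSMUSG00000001506_at; Col1a2, ENSMUSG00000029661_at; Col3a1, ENSMUSG00000026043_at; and Dcn, ENSMUSG00000019929_at). It holds 5 genes of smooth muscle (Acta2, ENSMUSG00000035783_at; Tagln, ENSMUSG00000032085_at; Cnn1, ENSMUSG00000001349_at; Myh11, ENSMUSG00000018830_at; and Des, ENSMUSG00000026208_at) and 1 gene of endothelial cells (Pecam1, ENSMUSG00000020717_at). All 10 members were measured on all 32 arrays, and no filter on low values was applied.

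The RNA came from cultured cells of the mouse bladder cancer line BC57 and from normal mouse urothelium, the epithelial lining of the bladder. Urothelium was taken from 9 mice, and the sources used here do not say if their RNA was pooled. Strain, age and sex of the mice are not used here. The pellet of BC57 cells and each urothelial tissue were split, 1 part being formalin-fixed for 24 h and embedded in paraffin (FFPE) and the other fresh frozen (FF). FFPE RNA was extracted from 10 sections of 5 µm. Each of BC57 and urothelium was then run in 6 conditions, which gave 12 groups. FFPE RNA was amplified with WT Pico from 0.5 ng (n = 3 arrays in each of BC57 and urothelium) and from 2 ng (n = 3 each), and with SensationPlus from 50 ng (n = 2 each). FF RNA was amplified with WT Pico from 0.5 ng (n = 3 each) and 2 ng (n = 3 each), and with WT Plus from 100 ng (n = 2 each), which the series names as its reference. Kit and input changed together wherever WT Pico was compared with another kit. The replicates are described as repeat runs of the same samples, so all errors and p-values here measure the spread between repeat arrays and not between mice or cultures.

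Fibroblasts of the bladder wall secrete the fibrillar collagens and the small proteoglycans that bind to their fibrils. Smooth muscle cells contain actin and myosin filaments together with the proteins that regulate and anchor them, and endothelial cells line the vessels of the layer below the epithelium. Urothelial cells and cancer lines of epithelial origin are not typical sources of these transcripts, so in a preparation of epithelium such genes are commonly read as a measure of other cells. In bulk RNA, fewer cells of a type and less RNA per cell cannot be told apart.

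RefSeq promoter sequence (build GRCm38.p6) was at hand for 5 of the 10 members, namely Col1a2, Col3a1, Acta2, Cnn1 and Des. The 250 bases before the annotated start are printed 5′ to 3′ on the strand of the gene for 4 of them. Col1a2 and Col3a1 are shown because these collagen genes were called lower in BC57 in every condition, and Acta2 and Cnn1 because these muscle genes of the same list behaved differently between BC57 and urothelium. Capitals mark matches on either strand to CCAAT, to TATAA and to the CArG box, the element bound by serum response factor, where its core of A and T holds 1 G or C. The windows are chr6:4505368-4505617 (plus strand) for Col1a2, chr1:45311288-45311537 (plus strand) for Col3a1, chr19:34255374-34255623 (minus strand) for Acta2 and chr9:22099003-22099252 (plus strand) for Cnn1.
Col1a2: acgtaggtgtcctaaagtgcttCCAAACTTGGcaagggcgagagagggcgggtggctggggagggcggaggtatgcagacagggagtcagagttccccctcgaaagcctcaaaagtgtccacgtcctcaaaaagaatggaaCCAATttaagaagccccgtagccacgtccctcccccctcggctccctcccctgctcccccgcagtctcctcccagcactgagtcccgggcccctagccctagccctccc
Col3a1: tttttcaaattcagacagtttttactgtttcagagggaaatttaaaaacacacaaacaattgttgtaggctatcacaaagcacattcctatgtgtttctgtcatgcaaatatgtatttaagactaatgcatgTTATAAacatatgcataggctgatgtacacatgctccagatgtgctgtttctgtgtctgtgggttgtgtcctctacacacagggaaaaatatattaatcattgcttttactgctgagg
Acta2: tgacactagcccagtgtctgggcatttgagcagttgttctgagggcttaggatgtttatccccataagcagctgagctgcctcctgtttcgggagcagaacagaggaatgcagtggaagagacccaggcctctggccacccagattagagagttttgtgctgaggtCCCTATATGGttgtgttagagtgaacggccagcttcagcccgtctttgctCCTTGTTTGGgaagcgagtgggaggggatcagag
Cnn1: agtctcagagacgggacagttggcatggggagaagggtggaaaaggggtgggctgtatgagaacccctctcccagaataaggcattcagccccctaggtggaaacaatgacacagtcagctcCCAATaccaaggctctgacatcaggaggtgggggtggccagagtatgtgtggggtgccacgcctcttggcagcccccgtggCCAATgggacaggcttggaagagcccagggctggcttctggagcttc

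Col1a2 had 1 CCAAT that began 109 bases upstream of the start, and Cnn1 had 2, which began 128 and 47 bases upstream. Col3a1 had TATAA on both strands, in overlapping matches that began 118 and 117 bases upstream. Acta2 held neither of these but 2 CArG boxes with 1 G or C in the core, which began 84 and 34 bases upstream, and Col1a2 held 1, which began 228 bases upstream. The strict CArG box, with A and T alone in its core, was in 0 of the 5 windows of members. Of all 32851 RefSeq promoter windows of this length, 33.85% held CCAAT, 22.78% held TATAA, 7.24% held a CArG box with 1 G or C in the core and 1.47% held a strict one. These matches describe the letters in the windows only.

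**Figure D1:**
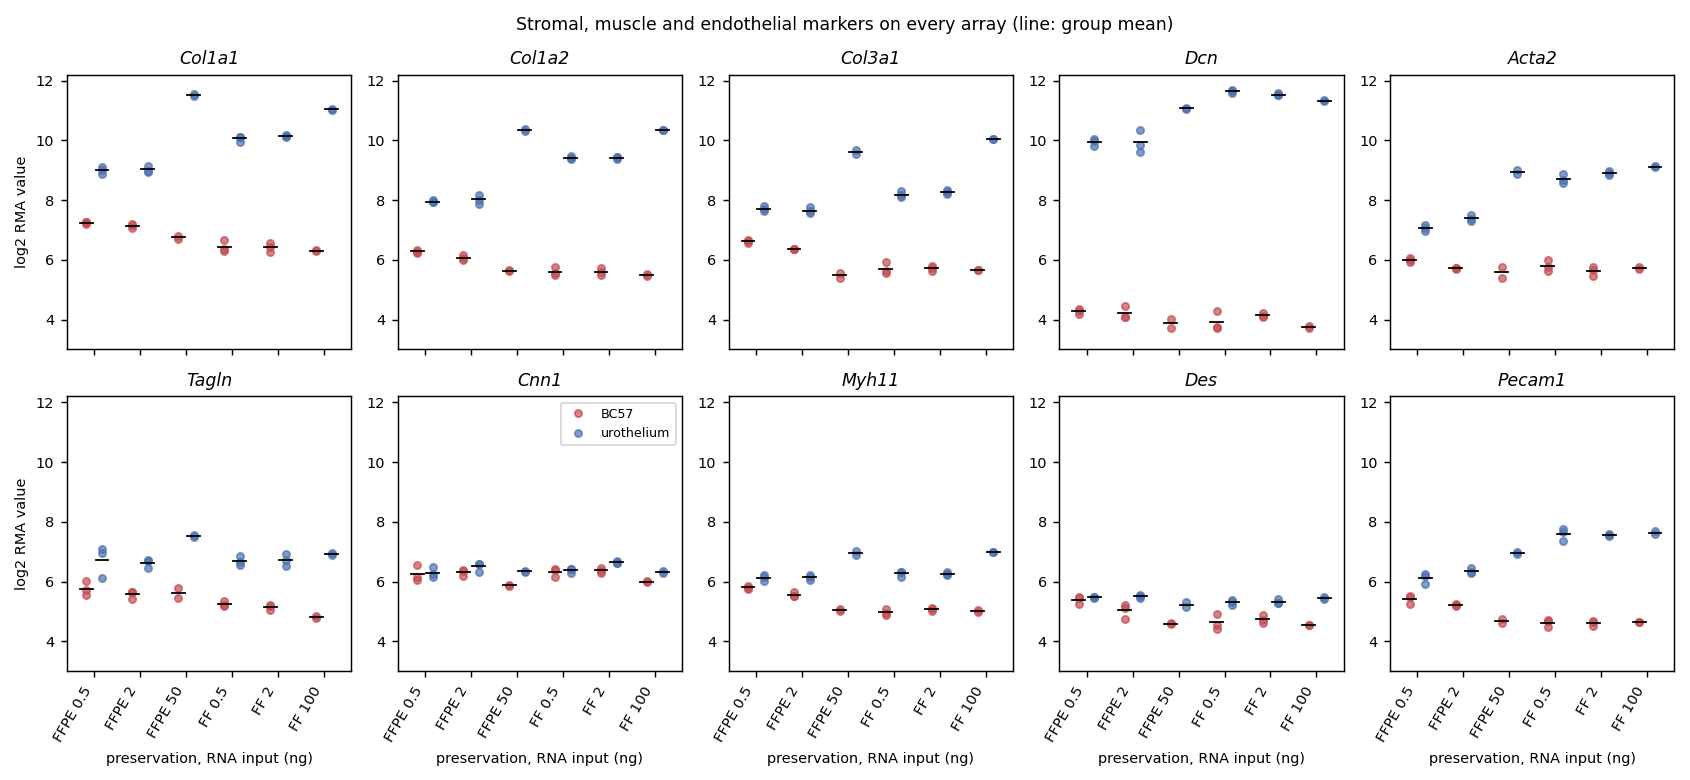
Deposited log2 RMA value of each of the 10 markers (vertical axis) on every array, by preservation and RNA input (horizontal axis), for BC57 (red, left of each pair) and urothelium (blue). Points are arrays and lines are group means. In 8 panels every BC57 array lies below every urothelium array, and only in the panels of Cnn1 and Des do the colours overlap.

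The marker genes separated the cell line from the tissue in all conditions. For 8 of the 10 genes, all 16 BC57 arrays lay below all 16 urothelium arrays, whatever the preservation, kit or input. Over the whole array, 4.47% of probe sets had every BC57 array below every urothelium array. The 8 were the 4 matrix genes, Acta2, Tagln, Myh11 and Pecam1. Dcn encodes decorin, a proteoglycan that binds collagen fibrils, and spanned 3.71 to 4.44 in BC57 and 9.61 to 11.68 in urothelium over the 6 conditions. Pecam1 encodes an adhesion molecule at the junctions of endothelial cells and spanned 4.48 to 5.51 in BC57 and 5.92 to 7.76 in urothelium. Cnn1, which encodes the actin-binding protein calponin 1, spanned 5.87 to 6.54 in BC57 and 6.16 to 6.70 in urothelium. Des, which encodes the intermediate filament desmin, spanned 4.42 to 5.49 in BC57 and 5.14 to 5.55 in urothelium. Levels are on the log2 scale and are not compared between genes, because each has its own probe set.

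In the reference condition, FF RNA at 100 ng, collagen and decorin transcripts were the markers that stood furthest below urothelium in BC57. Dcn had 3.71 and 3.80 on the BC57 arrays, against 11.31 and 11.35 on the urothelium arrays. The log2 change in BC57 was -7.57 with an SE of 0.06 and an adjusted p of 1.15e-07 by limma. Only 22.5% and 23.4% of probe sets were below Dcn on these BC57 arrays, and over all BC57 arrays 18.1% to 31.3% were. The deposited values do not show whether Dcn was above background in BC57, so its change may be understated in every condition. They do not show this for the other markers either, so a fall within BC57 may go unseen. Over all BC57 arrays, the share of probe sets below was 31.5% to 43.3% for Des and 34.1% to 44.2% for Pecam1. It was 40.0% to 58.8% for Tagln, 41.9% to 53.2% for Myh11 and, at the high end, 65.0% to 87.8% for Col1a1. On both urothelium arrays of the reference condition, 99.7% of probe sets were below Dcn and 99.6% below Col1a1. The shares on these urothelium arrays were 97.2% and 97.0% for Acta2, 86.6% and 87.7% for Pecam1, and 50.5% and 50.2% for Des. How many other cells the urothelium held was not tested. Col1a1 and Col1a2 encode the 2 chains of type I collagen. Col1a1 had 6.29 and 6.32 in BC57, against 11.05 and 11.02 in urothelium, and was 26.5-fold lower (log2 change -4.73 ± 0.06, limma adjusted p = 1.72e-07). Col1a2 had 5.45 and 5.53 in BC57, against 10.35 and 10.33 in urothelium, and was 28.9-fold lower (log2 change -4.85 ± 0.06, limma adjusted p = 1.74e-07). The transcripts of both chains were thus called lower in BC57. Col3a1, which encodes the type III collagen of distensible organs, had 5.66 and 5.65 in BC57, against 10.04 and 10.03 in urothelium, a 20.8-fold difference.

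Of the muscle genes, Acta2, Tagln and Myh11 were called lower in BC57, by smaller amounts than any matrix gene. Acta2 encodes smooth muscle alpha-actin and had 5.75 and 5.68 in BC57, against 9.15 and 9.09 in urothelium, which was 10.6-fold lower (log2 change -3.41 ± 0.06, limma adjusted p = 3.71e-07). Tagln encodes transgelin, an actin-binding protein of smooth muscle, and had 4.78 and 4.85 in BC57, against 6.97 and 6.91 in urothelium. Myh11, the smooth muscle myosin heavy chain, had 4.98 and 5.05 in BC57, against 7.0 on both urothelium arrays. The changes of Tagln and Myh11 were -2.12 ± 0.07 and -1.99 ± 0.06, and neither pair of groups overlapped. Des had 4.56 and 4.56 in BC57, against 5.47 and 5.44 in urothelium, and Cnn1 had 6.03 and 5.98 in BC57, against 6.29 and 6.35 in urothelium. In BC57 both were below urothelium without overlap, but their changes of -0.90 and -0.32 were under the log2 size of 1 that a call required. Pecam1 had 4.64 and 4.66 in BC57, against 7.60 and 7.69 in urothelium, and was 7.98-fold lower (log2 change -3.00 ± 0.07, limma adjusted p = 5.89e-07).

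With a call defined as a limma adjusted p under 0.05 over all 21237 probe sets and a log2 change of at least 1 in size, 8 of the 10 markers were lower in BC57 in the reference condition and 0 were higher. The background was 7.36% of probe sets called lower. The median change was -3.20 over the 10 markers and 0.07 over all probe sets. In the series' other conditions the same 8 genes were called lower with FF RNA at 0.5 ng (background 6.88%), FF RNA at 2 ng (7.34%) and FFPE RNA at 50 ng (6.48%). With FFPE RNA at 2 ng, 7 were called lower (2.42%), all but Myh11, Des and Cnn1. Tagln was among them at -1.03 ± 0.11, and was not called without replicate 3 of BC57 FFPE 2 ng (-0.95) or without replicate 2 of urothelium FFPE 2 ng (-0.98). With FFPE RNA at 0.5 ng, 5 were called lower (1.45%), the 4 matrix genes and Acta2. By limma, 0 markers were called higher in BC57 in each of the 6 conditions, where the backgrounds called higher were 3.05% (FFPE 0.5 ng), 4.94% (FFPE 2 ng), 9.19% (FFPE 50 ng), 8.11% (FF 0.5 ng), 7.63% (FF 2 ng) and 8.06% (FF 100 ng). Apart from the size rule, no marker had a positive change in any condition.

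**Figure D2:**
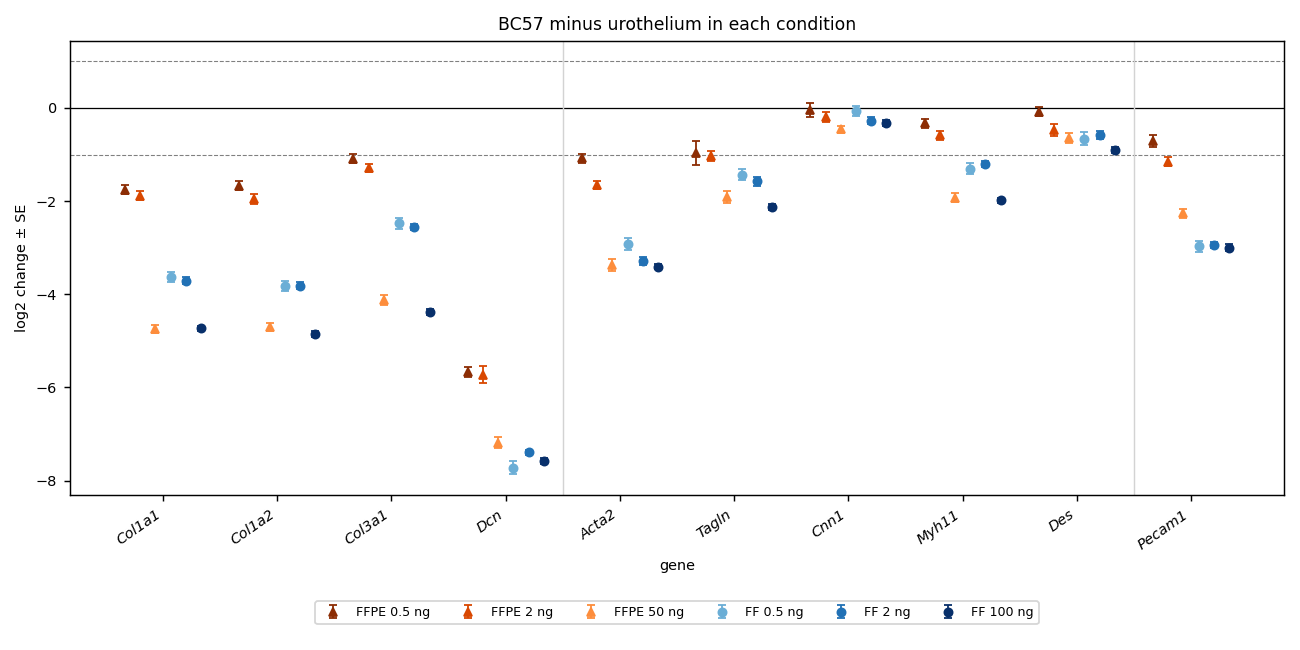
Log2 change, BC57 minus urothelium, of each marker (vertical axis, with SE bars) by gene (horizontal axis) in the 6 conditions. Triangles are FFPE and circles FF. Dashed lines mark log2 changes of -1 and 1. Dcn runs from -7.72 (FF 0.5 ng) to -5.67 (FFPE 0.5 ng). Most genes, Dcn among them, come closer to 0 with FFPE RNA at 2 ng and 0.5 ng.

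The size of the difference depended on the condition. With FFPE RNA at 0.5 ng, the BC57 minus urothelium change was -1.75 for Col1a1, -1.67 for Col1a2, -1.09 for Col3a1 and -1.08 for Acta2. It was -5.67 for Dcn, whose BC57 values of 4.19 to 4.34 stood beside array 20th percentiles of 4.30 to 4.32. The remaining muscle genes had changes between -0.96 (Tagln, or -1.25 and called without replicate 3 of urothelium FFPE 0.5 ng) and -0.05 (Cnn1), and Pecam1 had -0.71 ± 0.13 (limma adjusted p = 0.0109). Myh11 missed the adjusted p threshold there, with -0.33 ± 0.09 (limma adjusted p = 0.0538), although its 3 arrays at 5.76, 5.80 and 5.85 in BC57 did not reach the 6.21, 6.16 and 6.02 of urothelium. Expressed as a share of the change in the reference condition, Dcn had 75.6% at FFPE 2 ng and 74.9% at FFPE 0.5 ng, both set against BC57 values near the low end of the arrays, which moved with the condition. The other 7 markers called in the reference retained 29.4% (Col3a1) to 48.8% (Acta2) at FFPE 2 ng, and 16.6% (Myh11) to 45.0% (Tagln) at FFPE 0.5 ng. Over all 3273 probe sets called in the reference, the median share was 47.9% at FFPE 2 ng and 37.3% at FFPE 0.5 ng. At FFPE 50 ng the markers retained 75.4% (Pecam1) to 100.5% (Col1a1), beside a median of 89.2% over the reference calls. These shares are descriptions, since all use the same reference arrays.

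In FF urothelium, collagen transcripts were lower with WT Pico than with WT Plus at 100 ng, and of the markers Col3a1 differed by the most. Col3a1 had 8.28, 8.21 and 8.33 in urothelium with WT Pico at 2 ng, against 10.04 and 10.03 with WT Plus. The change was -1.76 ± 0.06, or 3.39-fold lower (limma adjusted p = 7.96e-09), and at 0.5 ng it was -1.86 ± 0.11, or 3.63-fold lower (limma adjusted p = 4.58e-07). Col3a1 was the 1 marker of 10 called lower at each input, beside a background of 2.12% at 2 ng and 2.44% at 0.5 ng. The other collagen chains were also below their WT Plus values without overlap. Col1a1 had 10.11, 10.17 and 10.14 with WT Pico at 2 ng, against 11.05 and 11.02 with WT Plus, a change of -0.90 ± 0.08 that was under the size of a call. Col1a2 changed by -0.93 ± 0.07 and Myh11 by -0.73 ± 0.07 at 2 ng, with values of -0.92 and -0.73 at 0.5 ng. At 0.5 ng Col1a1 stood at -0.97, and it was called without replicate 1 or without replicate 2 of urothelium FF 0.5 ng. Dcn had 11.57, 11.50 and 11.52 with WT Pico at 2 ng, against 11.31 and 11.35 with WT Plus, a change of 0.20 ± 0.06. Acta2 (-0.22), Tagln (-0.21), Des (-0.13) and Pecam1 (-0.09) had smaller changes at 2 ng, and the change of Cnn1 was 0.32. In BC57, 0 of the 10 markers were called in either direction at 2 ng (background 3.67%) or 0.5 ng (3.64%) by limma, and 3 and 2 of them had an unadjusted p under 0.05, as had 40.0% and 33.4% of all probe sets. Their changes there ran from -0.09 to 0.39 at 2 ng and from -0.04 to 0.44 at 0.5 ng.

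The kit difference of the collagen genes itself differed between BC57 and urothelium. The change with WT Pico at 2 ng was higher in BC57 than in urothelium by 1.82 ± 0.09 for Col3a1 (limma adjusted p = 2.77e-06), by 1.04 ± 0.10 for Col1a2 and by 1.02 ± 0.11 for Col1a1. At 0.5 ng these differences were 1.90 ± 0.16, 1.03 ± 0.13 and 1.10 ± 0.15. In each case 3 of 10 markers were called higher, beside a background of 0.447% at 2 ng and 0.381% at 0.5 ng. By size Col3a1 was at rank 16 at 2 ng and rank 12 at 0.5 ng among all probe sets. Without replicate 1 of BC57 FF 2 ng, or without replicate 3 of BC57 FF 0.5 ng, 1 of the 3 genes, Col3a1, was still called. With the arrays centred on their medians, 1 of the 3 was called at 2 ng, where Col1a1 and Col1a2 stood at 0.96 and 0.98. After quantile normalization, 2 markers were called at 2 ng and 1 at 0.5 ng. The deposited values do not show whether these genes were above background in BC57, so a fall there may go unseen.

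Between urothelium samples run with WT Pico from equal amounts of RNA, 5 markers were lower in FFPE than in FF. Dcn had 9.85, 10.33 and 9.61 in FFPE urothelium at 2 ng, against 11.57, 11.50 and 11.52 in FF urothelium. The change was -1.60 ± 0.15, or 3.03-fold lower (limma adjusted p = 6.06e-07). Acta2 had 7.35, 7.48 and 7.31 in FFPE urothelium, against 8.96, 8.84 and 8.91 in FF urothelium, a change of -1.52 ± 0.08 (limma adjusted p = 7.11e-09). Both genes had every FFPE array below every FF array. Pecam1 had 6.30, 6.47 and 6.34 in FFPE urothelium, against 7.58, 7.53 and 7.57 in FF urothelium, a change of -1.19 ± 0.07. Col1a1 changed by -1.12 ± 0.09 and Col1a2 by -1.40 ± 0.09. At 0.5 ng the same 5 genes were called, with changes of -1.70 (Dcn), -1.64 (Acta2), -1.48 (Col1a2), -1.47 (Pecam1) and -1.07 (Col1a1). The background of probe sets called lower was 10.3% at 2 ng and 10.2% at 0.5 ng. Col3a1 (-0.63 at 2 ng and -0.47 at 0.5 ng) was below FF without reaching the size of a call.

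Tagln, Myh11, Cnn1 and Des had changes between -0.14 and 0.18 in FFPE against FF urothelium at both inputs, and none passed the test. At 2 ng Tagln had 6.44, 6.73 and 6.68 in FFPE urothelium, against 6.72, 6.91 and 6.54 in FF urothelium, so the groups overlapped. At 0.5 ng Tagln had 7.08, 6.96 and 6.14 in FFPE urothelium, the widest spread of the gene in any group, against 6.65, 6.85 and 6.57 in FF urothelium. The 95% intervals of its change were -0.34 to 0.13 at 2 ng and -0.41 to 0.49 at 0.5 ng. The muscle list was thus split, with Acta2 called lower in FFPE urothelium and the other 4 genes not called.

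The brightness of the probe sets and the scale of the arrays also differed between these groups. Array medians ran from 5.43 to 5.80 on FFPE arrays and from 5.28 to 5.44 on FF arrays, and the median FFPE minus FF change over all probe sets in urothelium was 0.39 at 2 ng and 0.47 at 0.5 ng. In the brightest of 5 equal classes of probe sets, which held all 5 genes called, the median change was -0.92 at both inputs. Col3a1 was in that class too, with the smaller changes given above. After quantile normalization over all arrays, 0 markers were called lower at 2 ng, and at 0.5 ng Pecam1 alone was called (-1.41). On that scale the changes at 2 ng were -0.95 for Pecam1, -0.65 for Acta2, -0.40 for Dcn, -0.36 for Col1a2 and -0.01 for Col1a1. Of all probe sets called at 2 ng, 54.8% were higher in FFPE urothelium as deposited, 11.3% with arrays centred on their medians and 43.0% after quantile normalization. At 0.5 ng these shares were 63.8%, 16.2% and 43.4%. How much of the change of each marker belongs to the array-wide change was not tested.

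**Figure D3:**
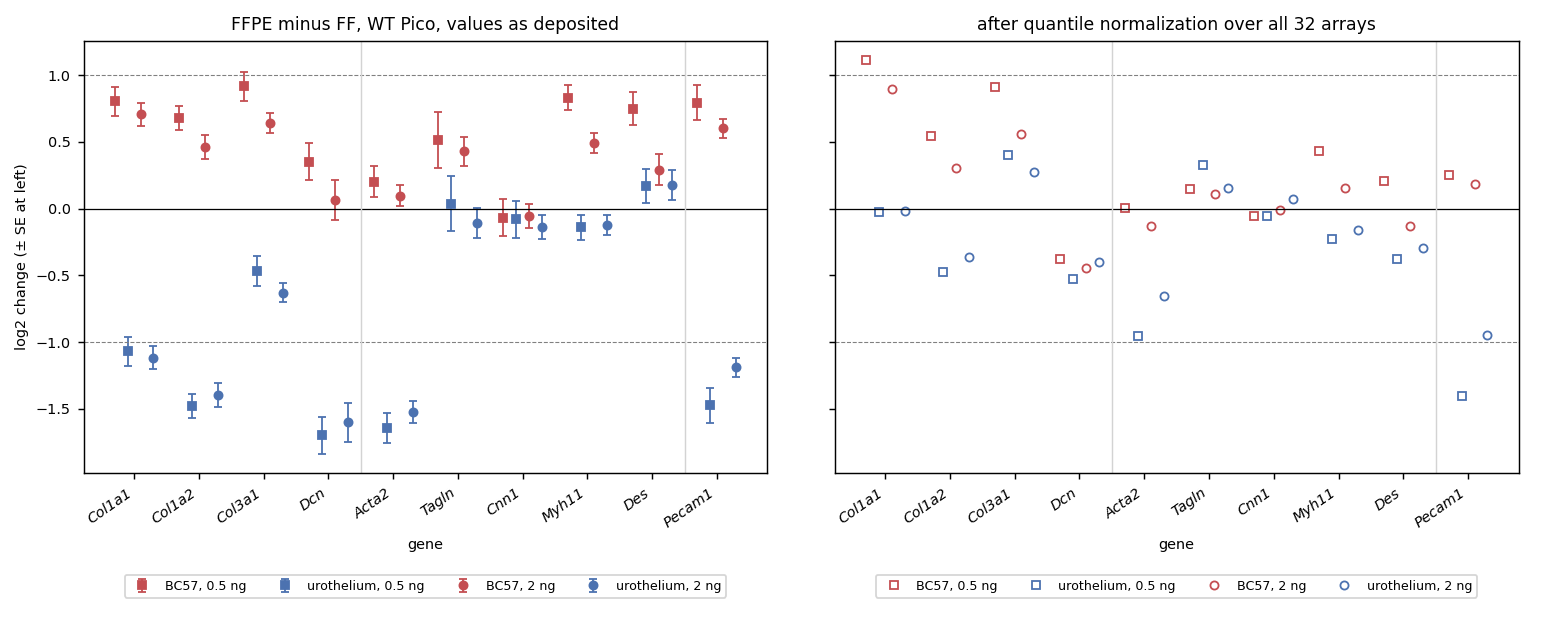
Log2 change, FFPE minus FF with WT Pico at equal input, of each marker (vertical axis) by gene (horizontal axis), for BC57 (red) and urothelium (blue) at 0.5 ng (squares) and 2 ng (circles). Left, deposited values with SE bars. Right, after quantile normalization over all 32 arrays, where in urothelium Pecam1 at 0.5 ng (-1.41) is past the dashed line at -1 and Col1a1 lies near 0.

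In BC57 these 5 genes were not lower in FFPE than in FF RNA on the deposited scale. Col1a1 had 7.19, 7.05 and 7.17 in FFPE BC57 at 2 ng, against 6.57, 6.44 and 6.27 in FF BC57, a change of 0.71 ± 0.09. Pecam1 had 5.22, 5.26 and 5.17 in FFPE BC57, against 4.70, 4.64 and 4.51 in FF BC57, a change of 0.60 ± 0.07. Both genes were higher in FFPE BC57 without overlap. None of the 10 markers reached the size of a call in BC57 (background 8.26% in either direction at 2 ng and 15.2% at 0.5 ng), while 7 at 2 ng and 8 at 0.5 ng had an adjusted p under 0.05 by limma, all of them higher. At that threshold 50.2% of all probe sets were higher at 2 ng and 52.3% at 0.5 ng. Col3a1 at 0.5 ng was called, at 1.03, without replicate 3 of BC57 FF 0.5 ng. The changes at 0.5 ng included 0.92 for Col3a1, 0.83 for Myh11, 0.80 for Col1a1 and 0.79 for Pecam1. The median change over all probe sets in BC57 was 0.28 at 2 ng and 0.39 at 0.5 ng. With 5 equal classes by brightness in FF BC57, the median at 2 ng was 0.50 in the class of Pecam1, Dcn and Des. It was 0.35 in that of Col1a2, Col3a1, Acta2, Tagln and Myh11, and -0.09 in that of Col1a1 and Cnn1. At 0.5 ng the class medians were 0.72 for Dcn, 0.49 for Col3a1 and Myh11 and -0.12 for Col1a1. How much of the change of each marker belongs to its class was not tested. After quantile normalization Col1a1 was called higher in FFPE BC57 at 0.5 ng (1.11), while Dcn had -0.44 at 2 ng and -0.38 at 0.5 ng and Acta2 had -0.13 at 2 ng, neither gene being called. With centred arrays Dcn (-0.22) and Acta2 (-0.19) were also below 0 at 2 ng.

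The difference between these changes was tested directly. At 2 ng the FFPE minus FF change was higher in BC57 than in urothelium for 6 of 10 markers (background 4.31%), by 1.86 ± 0.13 for Col1a2, 1.82 ± 0.12 for Col1a1, 1.79 ± 0.10 for Pecam1, 1.67 ± 0.21 for Dcn, 1.62 ± 0.12 for Acta2 and 1.27 ± 0.10 for Col3a1. At 0.5 ng the same 6 genes were called (background 4.07%), and Pecam1 had the highest difference of the 10, with 2.27 ± 0.19 (limma adjusted p = 3.30e-06). Both backgrounds include probe sets that did not differ between BC57 and urothelium. The 3273 probe sets called in the reference condition retained a median of 94.3% of that change at FF 2 ng and 47.9% at FFPE 2 ng. At 0.5 ng these medians were 94.2% and 37.3%. How much of the difference of each marker belongs to this array-wide change was not tested. Myh11 had 0.61 and 0.97 at the 2 inputs and Tagln 0.54 and 0.47, short of a call. Myh11 at 0.5 ng was called, at 1.01 to 1.02, without replicate 1 of urothelium FFPE 0.5 ng, replicate 3 of BC57 FF 0.5 ng or replicate 2 of urothelium FF 0.5 ng. After quantile normalization 1 gene was called at 2 ng, Pecam1 (1.13), and 3 at 0.5 ng, Pecam1 (1.66), Col1a1 (1.14) and Col1a2 (1.02). Dcn had -0.04 and 0.15 on that scale, and Tagln had -0.04 and -0.18. With FF RNA at 100 ng in place of the FF arrays of equal input, the change was higher in BC57 for 8 markers with FFPE RNA at 2 ng (background 3.76%) and for 7 with FFPE RNA at 0.5 ng (4.28%). After quantile normalization these counts were 4 and 6.

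In urothelium, most markers had FFPE group means closer to the reference with SensationPlus at 50 ng than with WT Pico. Tagln and Des did not. The Tagln means were 6.94 with FF 100 ng, 7.54 with FFPE 50 ng, 6.62 with FFPE 2 ng and 6.73 with FFPE 0.5 ng. For FFPE 50 ng against FF 100 ng, 0 of 10 markers were called in urothelium (background 2.59% higher and 4.41% lower) or in BC57 (4.71% in either direction) by limma. In the same order, 6 and 2 markers had an unadjusted p under 0.05, beside 65.0% and 52.7% of all probe sets. In urothelium Pecam1 had 6.92 and 6.98 with FFPE 50 ng, against 7.60 and 7.69 with FF 100 ng, a change of -0.69 ± 0.07 (limma adjusted p = 0.000187). Col1a1 had 11.54 and 11.48 with FFPE 50 ng, against 11.05 and 11.02 with FF 100 ng, a change of 0.47 ± 0.07. Tagln had 7.56 and 7.51 with FFPE 50 ng, against 6.97 and 6.91 with FF 100 ng, a change of 0.60 ± 0.11. These genes moved in different directions between the same arrays, and in each the groups did not overlap. The change of Pecam1 was higher in BC57 than in urothelium by 0.74 ± 0.10 (limma adjusted p = 0.00711), and 0 markers reached a call in that difference (background 1.53%). The conditions differ in fixation, kit and input together, and their parts cannot be told apart.

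**Figure D4:**
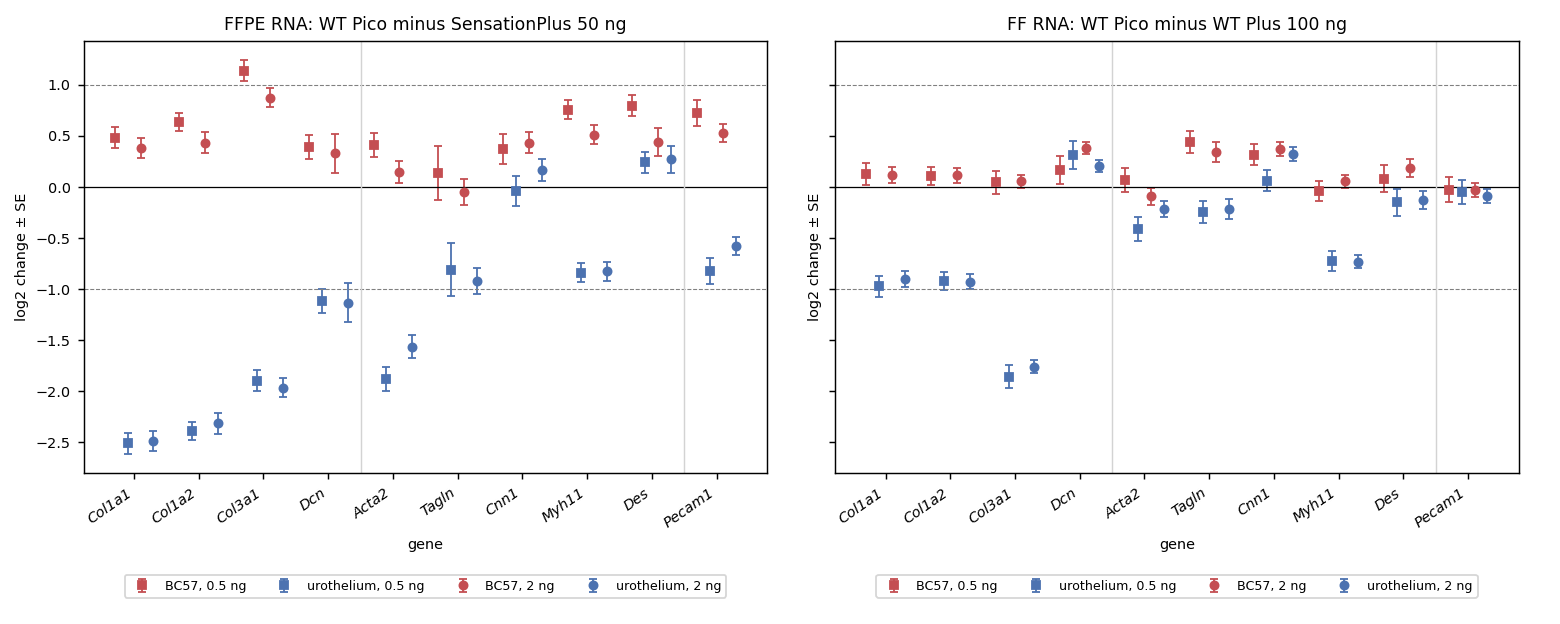
Log2 change, WT Pico minus the kit of higher input, of each marker (vertical axis, with SE bars) by gene (horizontal axis). Left, FFPE RNA against SensationPlus at 50 ng; right, FF RNA against WT Plus at 100 ng, for BC57 (red) and urothelium (blue) at 0.5 ng (squares) and 2 ng (circles). In urothelium the type I collagen genes lie near -2.5 at left and near -0.9 at right, and Col3a1 near -1.9 at left and -1.8 at right.

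Within FFPE urothelium, WT Pico gave lower values than SensationPlus for the matrix genes and Acta2. Col1a1 had 8.98, 9.15 and 8.94 with WT Pico at 2 ng, against 11.54 and 11.48 with SensationPlus, a change of -2.48 ± 0.10, or 5.59-fold lower (limma adjusted p = 2.50e-07). Col1a2 changed by -2.31 ± 0.10, Col3a1 by -1.97 ± 0.10, Acta2 by -1.56 ± 0.11 and Dcn by -1.13 ± 0.19. In each of these 5 genes every WT Pico array was below both SensationPlus arrays. The same 5 genes were called at 0.5 ng, with changes of -2.51 (Col1a1), -2.39 (Col1a2), -1.90 (Col3a1), -1.88 (Acta2) and -1.12 (Dcn). The background of probe sets called lower was 4.42% at 2 ng and 5.25% at 0.5 ng. Tagln (-0.92 and -0.81), Myh11 (-0.83 and -0.84) and Pecam1 (-0.58 and -0.83) were below SensationPlus without overlap and short of a call at 2 and 0.5 ng. After quantile normalization Dcn was called at neither input and its change at 0.5 ng was 0.05, while Col1a1 had -1.28 at 2 ng and -1.30 at 0.5 ng. Without replicate 3 of urothelium FFPE 2 ng, the change of Dcn at 2 ng was -0.97 and was not called.

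In BC57, 0 markers were called by limma between WT Pico at 2 ng and SensationPlus (background 7.34% in either direction), and 7 had an unadjusted p under 0.05, beside 57.1% of all probe sets. At 0.5 ng Col3a1 was called higher, with 6.66, 6.57 and 6.63 on the WT Pico arrays, against 5.40 and 5.57 with SensationPlus, a change of 1.14 ± 0.10 (limma adjusted p = 3.50e-05). The background called higher was 4.93%, and with arrays centred on their medians the change was 0.86 and not called.

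Input within WT Pico gave few calls anywhere on the array. Between 0.5 ng and 2 ng, 0 of 10 markers were called by limma in FFPE BC57, FFPE urothelium, FF BC57 or FF urothelium, with 5, 2, 0 and 1 at an unadjusted p under 0.05. In the same order 23.8%, 14.4%, 4.96% and 9.77% of all probe sets had such a p. The changes ran from -0.06 to 0.35 in FFPE BC57, -0.32 to 0.11 in FFPE urothelium, -0.22 to 0.16 in FF BC57 and -0.26 to 0.11 in FF urothelium. Few probe sets of the whole array were called in these comparisons, at backgrounds of 0.0188%, 0%, 0.00471% and 0.0188% in the same order. The counts of 0 therefore do not set the markers apart. In FFPE RNA, the BC57 minus urothelium change of every marker was smaller in size at 0.5 ng than at 2 ng. It was -1.08 against -1.66 for Acta2, -0.71 against -1.15 for Pecam1 and -5.67 against -5.72 for Dcn. Whether this change differed between the FFPE inputs was not tested.

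The order of the conditions within urothelium differed by gene. Col1a1 was highest with FFPE 50 ng, then FF 100 ng, FF 2 ng, FF 0.5 ng, FFPE 2 ng and FFPE 0.5 ng. In that order FF 2 ng overlapped FF 0.5 ng and FFPE 2 ng overlapped FFPE 0.5 ng. Dcn was highest with FF 0.5 ng, then FF 2 ng, FF 100 ng, FFPE 50 ng, FFPE 0.5 ng and FFPE 2 ng, and only the last pair overlapped. Pecam1 followed the order FF 100 ng, FF 0.5 ng, FF 2 ng, FFPE 50 ng, FFPE 2 ng and FFPE 0.5 ng, with overlap among the neighbouring FF groups. Thus FFPE 50 ng ranked first for Col1a1 and below all FF groups for Dcn and Pecam1. Des spanned 0.27 between its highest and lowest group mean in urothelium and Cnn1 0.34, compared with 2.51 for Col1a1, 1.71 for Dcn and 1.52 for Pecam1. In BC57 the group mean was highest with FFPE 0.5 ng for 9 of the 10 genes, the exception being Cnn1, whose highest mean was at FF 2 ng. FFPE 0.5 ng was also the highest for 47.6% of all probe sets, and for Dcn, Acta2, Tagln and Pecam1 it overlapped the next group.

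As a description over the 6 urothelium group means, which share RNA source and kits, Col1a1 and Col1a2 correlated at Pearson r = 0.98, Col3a1 and Myh11 at 0.99, Dcn and Pecam1 at 0.97 and Acta2 and Pecam1 at 0.91. In the last 3 of these pairs the genes carry different cell type labels. Tagln and Pecam1 correlated at 0.09, and Des correlated negatively with all 9 other markers, down to -0.69 with Dcn. The group means of Des in urothelium spanned only 0.27. Over the 6 BC57 group means Des correlated positively with all 9, from 0.45 with Cnn1 to 0.98 with Myh11. Outside the list, the probe set most like the mean profile of the 4 matrix genes over the 12 group means was ENSMUSG00000028364 (r = 0.997), and the one most like Pecam1 was ENSMUSG00000001642 (r = 0.998). Of the 14823 probe sets whose group means spanned at least 1, 6.09% correlated with the matrix profile and 6.60% with Pecam1 at above 0.9. An r above 0.9 was thus common on these arrays.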

How the data were processed

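Expression was measured on 32 arrays. Per the submitters' processing notes, the authors deposited log2 values from RMA (background correction, normalization between arrays, 1 summary per probe set) in the affy package. The sources used here do not give versions, array design, genome build or the set of arrays normalized jointly. RMA and any joint normalization can compress differences and move changes between arrays of different signal spread. The 21237 probe sets, each named by 1 Ensembl mouse gene, ran from 1.23 to 13.22, and no 2 arrays were identical. Arrays hold no read depth, and their number limits the precision.

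Groups followed the labels. Differences were fitted in R 4.3.3 with limma 3.58.1 (2-sided tests from lmFit and eBayes, variance trended on intensity), and p-values were adjusted by Benjamini-Hochberg over all probe sets. A call needed an adjusted p under 0.05 and a log2 change of at least 1 in size. BC57 minus urothelium was fitted on the arrays of 1 condition, and other contrasts on the 4 groups of 2 conditions. The steps were tested on simulated data. All 10 members were named in each comparison. The members and lists were chosen with earlier results of these data known. The files pair identifiers with no symbols and the reference table matched 0 of them, so member names come from the list itself, other marker lists were not tested, and the urothelium label was not checked against epithelial markers. Same-numbered arrays were not treated as paired: of 12 comparisons with 3 pairs, 0 had every correlation above 0.1, while of 12 with 2 pairs, too few to decide, 3 did. Alternatives were centring on array medians, quantile normalization over all arrays, probe sets above median brightness, no intensity trend, a fit on all arrays, the adjusted p alone, a replicate block and leaving out single arrays.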

Additional observations from a re-analysis of the deposited data

Results flagged for a closer look

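The following results drew attention because the effect of a condition on a marker differed between BC57 and urothelium by the test of that difference, BC57 minus urothelium, in limma. No cause was tested. The change of FFPE against FF RNA at 2 ng differed by 1.82 for Col1a1, 1.86 for Col1a2, 1.27 for Col3a1, 1.67 for Dcn, 1.62 for Acta2 and 1.79 for Pecam1. At 0.5 ng the same difference was 1.87 for Col1a1, 2.16 for Col1a2, 1.38 for Col3a1, 2.05 for Dcn, 1.85 for Acta2 and 2.27 for Pecam1. Over the 3273 probe sets called in the reference condition, the median share of the BC57 minus urothelium change retained was 47.9% at FFPE 2 ng and 37.3% at FFPE 0.5 ng. For FF RNA, the change between the kits WT Pico and WT Plus differed by 1.02 for Col1a1, 1.04 for Col1a2 and 1.82 for Col3a1 at 2 ng, and by 1.10 for Col1a1, 1.03 for Col1a2 and 1.90 for Col3a1 at 0.5 ng. The kit comparisons share the FF 100 ng arrays. After quantile normalization, 1 marker was called at 2 ng and 3 at 0.5 ng for FFPE against FF, and Dcn reversed at 2 ng. For the kits, 2 were called at 2 ng and 1 at 0.5 ng. Groups held 2 or 3 arrays, too few for a test of single outlying values; each array was left out in turn instead.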

How the results depend on the processing

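Of 164 printed changes of single markers, all 164 kept their direction and side of the threshold in the fit on all 32 arrays, without the intensity trend and with a replicate block, as did all 153 with a value among probe sets above the median brightness. The fit on all arrays, the fit without the trend and the brightness subset leave each difference of group means unchanged. Only the adjusted p could move there, so the kept directions and sizes were fixed in advance. The replicate block could move a change only where groups held unequal numbers of arrays, and it changed no call. BC57 minus urothelium counts stayed within 1.5 times under every alternative that was run. Of the 164 changes, quantile normalization reversed 14, took 21 below the threshold and took 3 past it, and centring on array medians reversed 6, took 4 below and took 6 past it. With quantile normalization the count of markers lower in FFPE than FF urothelium was 0 (2 ng) and 1 (0.5 ng), where it was 5 for both inputs on the deposited scale, and the count higher in FFPE BC57 at 0.5 ng was 1. Counts of markers whose change was higher in BC57 than urothelium became 1 (FFPE against FF, 2 ng), 3 (0.5 ng), 1 (WT Pico 0.5 ng against WT Plus) and 4 (FFPE 2 ng against FF 100 ng). With centring, counts became 0 (higher, FFPE 0.5 ng against 50 ng in BC57), 8 (lower, the same in urothelium) and 1 (FF 2 ng against 100 ng, difference between BC57 and urothelium). How far array-wide scale causes these shifts was not tested.

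With the adjusted p alone, counts of markers in BC57, each with the share of all probe sets, were 7 higher (50.2%; FFPE against FF, 2 ng), 8 (52.3%; 0.5 ng), 2 (24.2%; FFPE 50 ng against FF 100 ng), 3 (16.1%; FF 2 ng against 100 ng), 2 (12.1%; FF 0.5 ng against 100 ng), 7 (31.0%; FFPE 2 ng against 50 ng) and 8 (39.9%; FFPE 0.5 ng against 50 ng). In urothelium they were 2 higher (34.8%) and 3 lower (25.0%) for FFPE 50 ng against FF 100 ng, 2 higher (18.2%) and 4 lower (20.5%) for FF 2 ng against 100 ng, 5 lower (15.1%) for FF 0.5 ng against 100 ng, and 8 lower for FFPE 2 ng (19.1%) and 0.5 ng (18.2%) against 50 ng. The change was higher in BC57 than in urothelium for 1 marker (6.68%; FFPE 50 ng against FF 100 ng), 5 (3.01%; FF 2 ng against 100 ng) and 5 (1.03%; FF 0.5 ng against 100 ng). Fewer calls than these in the report follow from the size rule.

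Reversals after quantile normalization were, for FFPE against FF urothelium, Col3a1 (0.27 at 2 ng, 0.40 at 0.5 ng), Des (-0.30, -0.38), Tagln (0.15 at 2 ng) and Cnn1 (0.075 at 2 ng). For FFPE 50 ng against FF 100 ng in urothelium they were Col1a2 (0.19), Acta2 (0.28) and Myh11 (0.20). Des in BC57 against urothelium at FFPE 0.5 ng was 0.015. Of the changes called as deposited, 2 reversed: Dcn in FFPE 0.5 ng against 50 ng in urothelium (0.051), and the difference of Dcn between BC57 and urothelium in FFPE against FF at 2 ng (-0.042). That difference for Tagln became -0.044 at 2 ng and -0.18 at 0.5 ng. With centring, uncalled changes that reversed were Cnn1 in BC57 against urothelium at FFPE 0.5 ng (0.013), FFPE against FF urothelium for Des (-0.21 at 2 ng, -0.24 at 0.5 ng) and Tagln (-0.37 at 0.5 ng), Cnn1 in FFPE 50 ng against FF 100 ng (-0.087) and Pecam1 in FF 0.5 ng against 100 ng in urothelium (0.0063).

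Leaving out single arrays reversed uncalled changes only. Ranges for BC57 minus urothelium were -0.12 to 0.023 (Cnn1, FF 0.5 ng) and -0.19 to 0.052 (Cnn1, FFPE 0.5 ng). In urothelium they were -0.14 to 0.33 (Tagln, FFPE against FF, 0.5 ng), -0.047 to 0.032 (Col1a2), -0.0087 to 0.049 (Cnn1) and -0.10 to 0.041 (Myh11) for FFPE 50 ng against FF 100 ng, and -0.13 to 0.062 (Pecam1, FF 0.5 ng against 100 ng). Counts ranged from 0 to 1 (higher, FFPE against FF in BC57, 0.5 ng), 1 to 2 (lower, FF 0.5 ng against 100 ng in urothelium), 1 to 3 and 1 to 3 (differences between BC57 and urothelium, FF 2 ng and 0.5 ng against 100 ng). The lower count at FF 2 ng was without replicate 1 of BC57 FF 2 ng, and at FF 0.5 ng without replicate 3 of BC57 FF 0.5 ng; Col1a2 was also not called (0.99) there without replicate 1 of BC57 FF 100 ng. Where a group was left with 1 array, it was assumed to vary like the other groups. The number of arrays, technical replicates and single RNA sources limit all results.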
